A study of Drosophila melanogaster with 144 samples.

Results

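Daily rhythms of transcript levels were examined in heads of Canton-S B females, which supplied 36 of the 144 libraries of the series: 3 libraries, numbered 1 to 3, at each of 12 circadian times (CT) 2 h apart. Canton-S B is a Drosophila melanogaster laboratory line whose behavioural period the labels give as 24 h, and the growth protocol names its cultures w1118; Canton-S B, w1118 being a mutant allele of the eye-colour gene white. Adult virgin flies were kept at 25 °C under 12 h of light and 12 h of darkness per day for 3 days and then in constant darkness for 3 days before freezing, so that CT0 to 12 is the subjective day and CT12 to 24 the subjective night. Each library held poly(A) RNA from a pool of 150 heads. The 2 groups used for comparison were 36 libraries of Canton-S B males and 36 of females of DGRP_892, an inbred line with a long circadian period, both handled in the same way. All 36 libraries were taken as members by their labels, and a 24-h cosine and sine were fitted to the read counts of this group alone. The samples cover a single cycle of 24 h.

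In the fly clock, the transcription factors CLK and CYC drive transcription of per and tim during the evening, and the PER and TIM proteins later repress CLK and CYC. A linked loop runs through vri and Pdp1, whose proteins repress and activate Clk, so that Clk transcripts run opposite to per and tim. In the head, the clock runs in brain neurons, photoreceptors, glia and fat body, and a whole-head library averages over all of these. In such bulk samples, fewer cells of a type and less RNA per cell cannot be told apart.

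The libraries held 11700000 to 36500000 gene counts (median 15700000). By the consecutive runs of 24 library numbers in the labels, 15 libraries from 11 of the 12 times were deeper (26100000 to 36500000) than the other 21 (11700000 to 16100000). Counts of libraries from the same time correlated at 0.964 to 0.991 (log2 CPM). Of the variance, 22.5% lay on the first principal component, which followed the library runs (R2 0.848) and hardly circadian time (R2 0.0436), while the third, with 12.9%, followed circadian time most closely (R2 0.283). Head markers were present throughout: the summed level of 4 photoreceptor genes was 48821 to 74509 counts per 1000000 gene counts (CPM), of 4 neuron genes 2020 to 3950, of 4 glia genes 621 to 813 and of 4 fat body genes 5346 to 11018. Haemocyte markers summed to 568 to 1043 CPM, testis and accessory gland markers to at most 0.197 and gut markers to at most 0.211. None of these markers passed the rhythm test.

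A pair of libraries stood apart. In CT4 replicate 2, 20 heat-shock and chaperone genes summed to 27719 CPM, against 3620 to 9524 (median 4757) in the other 35 libraries, and Hsp68 stood at 4244 against at most 70.2 CPM. In CT16 replicate 3, 4 ovary markers summed to 11.1 CPM, through osk (8.55 CPM) and nanos (2.53), against at most 0.563 elsewhere. The eggshell genes Cp36 and Vm26Aa were at 0 in that library.

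The first question was how many transcripts followed a 24-h rhythm and when they peaked. Of 10123 genes tested, 176 (1.74%) passed an adjusted p of 0.05 (edgeR quasi-likelihood F test, Benjamini-Hochberg), 67.6% of them with a peak in the subjective day (1.18% of the genes tested) and 57, or 32.4%, in the subjective night (0.563%). At an unadjusted p under 0.05 there were 1291 genes (12.8%). Peaks fell into a pair of clusters. Day peaks lay between CT3.8 and CT9.8 (median CT7.80) and night peaks between CT16.5 and CT20.9 (median CT19.02), and no called gene peaked from CT10 to 16 or from CT21 to 3. Between CT6 and CT10 lay 58% of the peaks, and 46 peaks lay between CT18 and CT20. Fitted peaks of all genes tested were spread over every 2-h bin, from 5.64% to 11.7% of genes per bin.

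**Figure D1:**
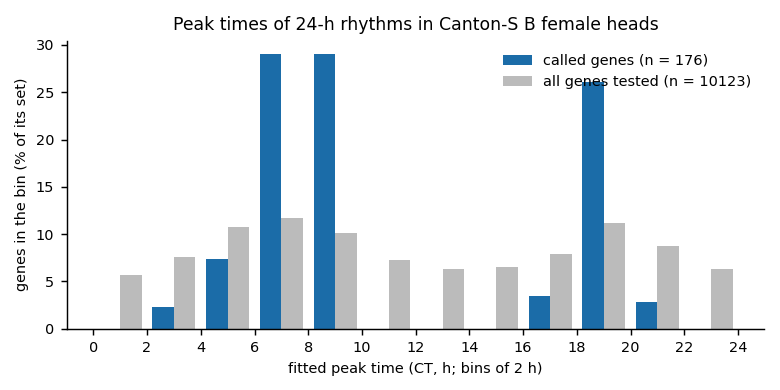
Share of genes (%) whose fitted 24-h peak falls in each 2-h bin of circadian time, for the 176 called genes (blue) and all 10123 genes tested (grey). Called genes gather at CT6 to 10 and CT18 to 20, with none at CT10 to 16 or CT22 to 2.

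Amplitudes were small. The amplitude, the log2 distance from the mean to the peak of the fitted curve, had a median of 0.236 over the called genes, a peak-to-trough ratio of 1.39, against 0.0801 over all genes tested. It reached 0.5 in 26 called genes and was under 0.25 in 98. Cosines fitted separately to the 12 libraries of each replicate number gave 3 peak times per gene, which lay within 4 h of each other in 81.2% of the 176 called genes and in 1376 (13.6%) of all genes. The same libraries chose the called genes, so this is a description. The SD of the 3 peak times had a median of 1.48 h. In 79% of the called genes all 3 libraries at the sampled time nearest the peak lay above all 3 libraries 12 h away, compared with 24.2% of all genes.

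The 12 times cover 1 cycle, and the labels describe 2 incubators that ran opposite light cycles. They do not say which times each incubator supplied, so a difference between incubators cannot be told apart from one between subjective day and night. With a step between CT2 to 12 and CT14 to 24 added, which correlates at 0.911 with the 24-h pair, 6 genes (0.0593%) passed the 24-h test: CG13386, CG4476, ais, Nopp140, CG14687 and Polr1E, all but CG13386 among the 176. Tested on differences among times within each 12-h span alone, 4 genes passed (Hsp27, Hsp68, CG4476 and CG14694), or 0.0395% of those tested. At an unadjusted p under 0.05 were 89 of the 176 (50.6%), which the same libraries chose, and 14.9% of all genes. Without CT4 replicate 2, 12 genes passed that test, among them CG4476 (adjusted p 0.00575) and Ilp6 (adjusted p 0.0213), and the heat-shock genes no longer did. CG13386, ais, CG14687 and CG14694 were named after their values were seen.

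Levels are shares of all gene counts in a library. The added ERCC spike-in RNA made up 0.205% to 0.891% of counts, and gene counts per spike-in count varied with a residual SD of 0.58 on the log2 scale around a 24-h curve of amplitude 0.12 that peaked at CT4.2. Scaled to the spike-ins, 3 genes passed (0.0296%: dy, Gss1 and CG33965). Of the 176 called genes, 49 had an unadjusted p under 0.05 with that scaling, against 1.66% of all genes. All 176 kept their peak in the subjective day or in the subjective night. The same libraries chose these genes, at a median amplitude of 0.236 against 0.12 for that curve, so this count is not a test.

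Of the 8 core clock genes, 2 passed the test (25.0%, against 1.74% of all genes): per, which peaked in the night, and Clk, which peaked in the day. per (FBgn0003068, chromosome X, 2685580 to 2692780) encodes the repressor PERIOD. Its level was 32.3, 41.6 and 37.4 CPM in the 3 libraries at CT8, 105.9, 121.8 and 90.6 at CT16 and 126.3, 79.5 and 120.6 at CT18. Day libraries ran from 32.3 to 61.7 CPM (median 47.9, n = 18) and night libraries from 49.1 to 126.3 (median 88.1, n = 18), and 17 of the 18 night libraries exceeded every day library. The exception was CT14 replicate 3, at 49.1 CPM beside 126.2 and 79.01 in the other libraries of that time. The fitted curve had an amplitude of 0.66, a peak-to-trough ratio of 2.498 and a peak at CT19.0 (adjusted p 4.75e-06), and the 3 replicate numbers gave peaks at CT18.0, CT19.7 and CT19.9 and an amplitude of 0.67 ± 0.13 (SD, n = 3).

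Clk (FBgn0023076, chromosome 3L, 7763233 to 7775603) encodes the activator CLOCK. It stood at 73.3, 78.6 and 70.3 CPM at CT6 and at 43.7, 54.3 and 40.5 at CT18. Day libraries ran from 51.8 to 81.8 CPM (median 62.6) and night libraries from 40.5 to 71.9 (median 52.1), so day and night overlapped, with 9 night libraries below every day library. The amplitude was 0.25, a peak-to-trough ratio of 1.41, with a peak at CT6.3 (adjusted p 0.0190), about 11 h from the fitted peak of per at CT19.0. The replicate numbers peaked at CT7.2, CT6.4 and CT5.9, with an amplitude of 0.25 ± 0.14 (SD, n = 3).

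tim (FBgn0014396), the partner of per, ran from 272 to 424 CPM by day (median 368) and from 326 to 564 by night (median 415). Its amplitude of 0.15 with a peak at CT19.6 did not pass (adjusted p 0.145, unadjusted p 0.0058). vri (FBgn0016076), which encodes a repressor of Clk, stood at 97.5, 101.04 and 80.3 CPM at CT8 and at 174, 189 and 205 at CT24, and its amplitude of 0.27 with a peak at CT20.3 missed the threshold (adjusted p 0.0831). Levels of vri overlapped between day (80.3 to 194 CPM) and night (107.8 to 205 CPM). The other 4 core genes had unadjusted p-values above 0.05: cyc, the partner of Clk (amplitude 0.04, adjusted p 0.856), Pdp1, an activator of Clk (amplitude 0.01, adjusted p 0.999), cry, the blue-light receptor (amplitude 0.07, adjusted p 0.770), and cwo, a repressor of CLK targets (amplitude 0.03, adjusted p 0.941). cwo was called in a test of any difference among the 12 times (adjusted p 0.0267). It was high at CT4 (91.9, 104.8 and 88.8 CPM) and again at CT16 (97.5, 92.3 and 86.6), and low at CT12 (67.5, 64.1 and 66.6) and CT22 (66.7, 73.4 and 59.9). Over all genes, however, no 12-h component passed the test (0% of 10123).

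**Figure D2:**
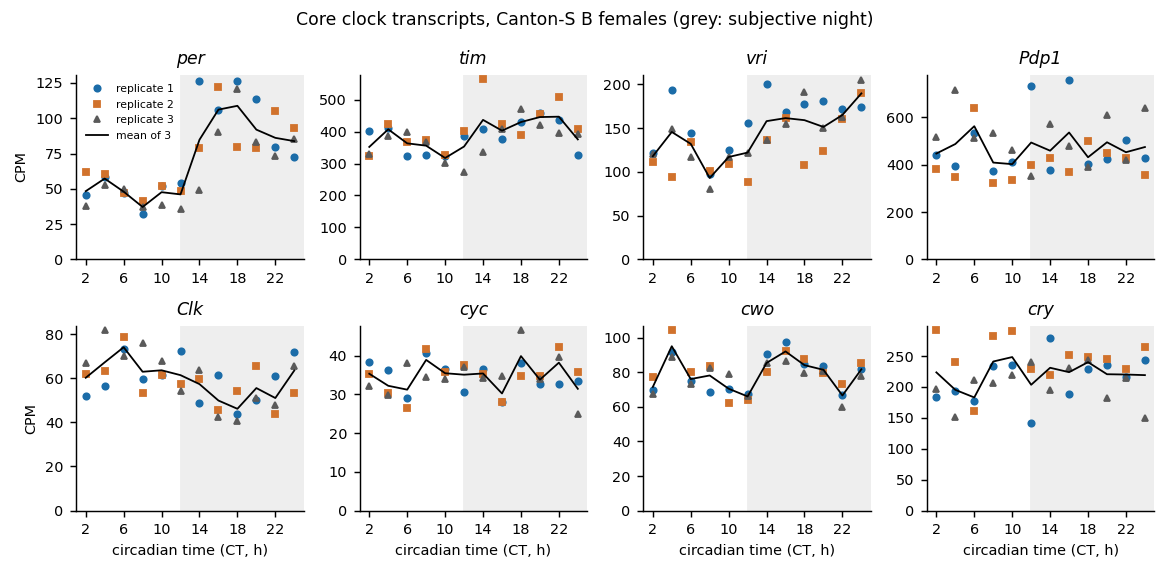
Level (CPM) of the 8 core clock genes in each of the 36 libraries against circadian time in h, with points for libraries by replicate number. per is lowest at CT8 and high from CT14 to 20, and Clk runs opposite to it. The amplitudes fitted to Pdp1, cyc and cry are 0.01, 0.04 and 0.07.

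The night-peaking genes with the largest amplitudes included several known head output genes of the clock, and gol had the lowest p of all genes. gol (FBgn0004919, chromosome 2R, 25072627 to 25084347) encodes Goliath, a RING-finger protein of endosomes with ubiquitin ligase activity. It stood at 87.7, 103.01 and 102.8 CPM at CT8, at 265, 192 and 290 at CT16 and at 242, 267 and 304 at CT18. Day libraries ran from 86.9 to 136.8 CPM (median 102.7) and night libraries from 117.2 to 304 (median 190), with 15 of the 18 night libraries above every day library. The amplitude was 0.66, a peak-to-trough ratio of 2.51, with a peak at CT18.3 (adjusted p 1.47e-07). The replicate numbers gave peaks at CT17.3, CT19.8 and CT18.3.

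dy (FBgn0004511, chromosome X, 11769769 to 11778784), the dusky gene, encodes a cuticle-associated membrane protein. Its amplitude was the largest among called genes with night peaks, at a low level: 0.0723, 0.197 and 0.365 CPM at CT8 against 3.63, 2.78 and 2.91 at CT16, with 833 counts over all 36 libraries. Its peak-to-trough ratio was 10.1 (amplitude 1.67, peak CT18.3, adjusted p 1.13e-06), and day libraries (0.0723 to 1.14 CPM) overlapped night libraries (0.263 to 3.94 CPM). Usp8 (FBgn0038862, chromosome 3R, 21134262 to 21138214) encodes a deubiquitinase known to act on CLK. It stood at 56.9, 54.2 and 67.5 CPM at CT6 and at 122.53, 153 and 169 at CT18, a peak-to-trough ratio of 1.92 (amplitude 0.47, peak CT17.9, adjusted p 1.15e-05). Day and night overlapped there, at 54.2 to 90.8 CPM by day and 64.4 to 169 by night.

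CG14186 (FBgn0036935, chromosome 3L, 20098084 to 20103827) stood at 49.1, 67.4 and 71.8 CPM at CT6 and at 105.8, 94.7 and 104.7 at CT18 (amplitude 0.28, peak CT18.9, adjusted p 2.55e-06). eys (FBgn0031414, chromosome 2L, 2311680 to 2358944) encodes Eyes shut, the matrix protein that keeps open the space between the rhabdomeres of the photoreceptors. It stood at 134.9, 145 and 167 CPM at CT8 and at 258, 226 and 208 at CT18, and 12 of the 18 night libraries lay above every day library (amplitude 0.30, peak CT18.7, adjusted p 1.15e-05). CAH9 (FBgn0039486), named as a carbonic anhydrase, stood at 21.3, 18.9 and 21.6 CPM at CT4 and at 46.4, 48.6 and 39.5 at CT20 (amplitude 0.43, peak CT18.8, adjusted p 3.36e-05). Its high and low times are clear in each triplet, although single day libraries reached 45.3 CPM.

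CG4476 (FBgn0035969, chromosome 3L, 9211880 to 9215256) changed sharply between neighbouring times. It stood at 2.46, 3.49 and 2.73 CPM at CT4, at 14.2, 16.5 and 17.3 at CT18 and at 15.4, 25.2 and 23.8 at CT22, then at 5.16, 2.63 and 5.21 at CT24 and at 11.96, 11.3 and 15.1 at CT2 (amplitude 0.87, peak CT19.5, adjusted p 0.00578). The drop at CT24 between higher levels at CT22 and CT2 is not described by a 24-h curve.

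Slob (FBgn0264087, chromosome 2L, 7642005 to 7675078) encodes a protein that binds the calcium-activated potassium channel Slowpoke. It stood at 312, 406 and 407 CPM at CT8 and at 773, 614 and 684 at CT16, a peak-to-trough ratio of 1.46 (amplitude 0.27, peak CT18.4, adjusted p 0.0130). Day libraries ran from 312 to 587 CPM and night libraries from 448 to 773. Myo28B1, on the other strand, overlaps Slob and was also called, and reads of both genes cannot be told apart in the overlap, as no source used here says whether counting used strand. Other night peaks lay close by: Gad1, the enzyme that makes the transmitter GABA (amplitude 0.16, CT18.8, adjusted p 0.0300), Gbeta76C, the beta subunit of the photoreceptor G protein (amplitude 0.18, CT18.8, adjusted p 0.0358), Gapdh1, a glycolytic enzyme (amplitude 0.27, CT19.2, adjusted p 0.0320), Tm2, a muscle tropomyosin (amplitude 0.15, CT18.8, adjusted p 0.0364), and CG9760 (amplitude 0.37, CT18.2, adjusted p 0.00436). The calls of Gad1, Gbeta76C, Gapdh1 and Tm2 held in 22 to 29 of 36 fits that each left out 1 library, whereas those of per, Clk, gol, dy, Usp8, CG14186, eys, CAH9, CG4476 and Slob held in all 36.

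Day-peaking genes included enzymes of sugar, glutathione and amino acid metabolism, along with the circadian output genes CG10513 and to. CG10513 (FBgn0039311) stood at 45.8, 43.7 and 41.4 CPM at CT8 and at 20.7, 24.99 and 19.99 at CT20. Its 3 replicate numbers peaked at CT8.0, CT8.1 and CT8.8, among the closest of the named genes, with an amplitude of 0.37 ± 0.04 (SD, n = 3, adjusted p 3.05e-04). to (FBgn0039298, takeout), a secreted protein linked to feeding, stood at 76.2, 92.3 and 125.96 CPM at CT10 and at 48.9, 67.4 and 58.97 at CT22 (amplitude 0.30, peak CT8.8, adjusted p 0.0308). It was less even over the replicate numbers, with an amplitude of 0.30 ± 0.15 (SD, n = 3).

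Treh (FBgn0003748, chromosome 2R, 21074018 to 21088945), which encodes trehalase and splits the blood sugar trehalose, stood at 576, 464 and 521 CPM at CT6 and at 409, 424 and 372 at CT20. Day libraries ran from 391 to 576 CPM (median 494) and night libraries from 372 to 497 (median 416), with an amplitude of 0.18 and a peak at CT7.0 (adjusted p 0.00128). Ilp6 (FBgn0044047), an insulin-like peptide of the fat body, stood at 113.24, 119.49 and 122.91 CPM at CT6 and at 81.8, 59.2 and 76.7 at CT22 (amplitude 0.23, peak CT6.3, adjusted p 0.0213). foxo, the transcription factor that insulin signalling restrains, had an amplitude of 0.16 and a peak at CT7.7 (adjusted p 0.0218).

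Gclc, the catalytic subunit of the rate-limiting enzyme of glutathione synthesis, rose to 179, 153 and 159 CPM at CT4 from 116.6, 119.9 and 125.9 at CT16 (amplitude 0.13, peak CT5.5, adjusted p 0.0130). Gss1, a glutathione synthetase gene, was called as well (amplitude 1.46, peak CT5.4, adjusted p 0.00901) but at a mean of only 0.207 CPM, with libraries at 0 by day and by night. CG16926 stood at 126.3, 178 and 175 CPM at CT4 and at 43.9, 50.3 and 34.01 at CT18 (amplitude 0.55, peak CT5.8, adjusted p 0.0124), and CG31205 at 422, 359 and 392 CPM at CT8 and at 137.8, 223 and 182 at CT22 (amplitude 0.39, peak CT9.1, adjusted p 0.0134). Ugt35E2, a UDP-glycosyltransferase, peaked at CT8.4 (amplitude 0.33, adjusted p 0.00146) and CG16898 at CT5.4 (amplitude 0.49, adjusted p 0.0374).

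Some day calls were less secure. Sardh, a mitochondrial sarcosine dehydrogenase, had 36.1, 107.8 and 27.4 CPM at CT8 and at most 43.7 in any other library, and Cyp4e3, a cytochrome P450, ranged from 5.2 to 25.95 CPM by day. Both were called (amplitudes 0.49 and 0.59, adjusted p 0.0381 and 0.0450) and neither was without CT4 replicate 2 (adjusted p 0.0553 and 0.0630), at nearly the same amplitudes (0.47 and 0.58). Of the 36 fits that each left out 1 library, Sardh was called in 20 and Cyp4e3 in 11. The amplitude of Sardh went down to 0.308 in these fits, and its highest adjusted p (0.146) came without CT8 replicate 2. CG7130, a DnaJ-domain protein, stood at 14.8, 33.4 and 5.46 CPM at CT4 and at most 7.7 elsewhere. Its amplitude went from 0.69 (adjusted p 0.0368) to 0.38 (adjusted p 0.131) without CT4 replicate 2.

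Some of the genes that build ribosomes were called, each with a peak in the subjective day. Ribosomes are assembled in the nucleolus from ribosomal RNA, made by RNA polymerase I, and ribosomal proteins, with the help of many processing factors. Of 29 genes listed for processing and polymerase I, 8 passed the rhythm test (27.6%, against 1.74% of all genes), all with day peaks between CT7.5 and CT9.8, and no member passed with a night peak. Fitted peaks, called or not, lay in the day for 28 of the 29 and at CT6 to 10 for 21. Of all 10123 genes tested, 5367 had a fitted day peak and 2211 one at CT6 to 10. The list holds Rrp1, which encodes a DNA repair endonuclease and does not build ribosomes (amplitude 0.01, adjusted p 0.996), and nol, whose role in the process is not sure. Without both, 8 of 27 passed (29.6%), 27 had a fitted peak in the day and 21 at CT6 to 10. The other 6 of the 27 did not pass and had fitted peaks earlier or later, down to CT3.3 and up to CT10.3. The median amplitude was 0.17 with or without these members, against 0.08 over all genes tested. The list was put together with earlier results of these data known, so the counts describe it.

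The pit gene (FBgn0266581, chromosome 3R, 22034298 to 22038925), which encodes a nucleolar DEAD-box RNA helicase, had the lowest p in that list. It stood at 44.5, 40.4 and 51.7 CPM at CT6 and at 30.01, 26.5 and 27.5 at CT20 (amplitude 0.24, peak CT8.1, adjusted p 0.00670). Nopp140 (FBgn0037137), a nucleolar chaperone of small nucleolar RNPs, stood at 65.96, 77.3 and 71.9 CPM at CT10 and at 44.1, 53.2 and 57.3 at CT12 (amplitude 0.18, peak CT8.0, adjusted p 0.0120). That step between CT10 and CT12 was shared: the median member was 0.27 above its own mean at CT10 and 0.08 below it at CT12 on the log2 scale, and lowest at CT20, 0.21 below.

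The other called members were Nnp-1, nclb, Ns1, Nop60B, the pseudouridine synthase of the small nucleolar RNPs, nop5 and Mys45A, with amplitudes of 0.15 to 0.23 and adjusted p-values from 0.0134 to 0.0446. Without CT4 replicate 2, 7 of the 8 passed, Mys45A being the exception (amplitude 0.15 in both fits, adjusted p 0.0553). The 6 genes named for the largest amplitudes with peaks from CT9 to 15 lay outside that list. Among them mod, a nucleolar protein, stood at 207, 165 and 194 CPM at CT8 and at 112.4, 116.4 and 127.8 at CT20 (amplitude 0.23, peak CT9.4, adjusted p 0.0334). Polr1E, a subunit of RNA polymerase I, stood at 16.2, 18.2 and 17.6 CPM at CT10 and at 12.9, 10.6 and 10.3 at CT20 (amplitude 0.23, peak CT9.4, adjusted p 9.39e-04). RpLP0-like had an adjusted p of 0.0468 and, without CT4 replicate 2, of 0.0586 at the same amplitude (0.25 in both), while CG8939 and CG12301 were called with adjusted p 7.50e-04 each (peaks CT9.2 and CT9.2). Noc1, Noc2, Noc3 and Rrp5, which act in the maturation of ribosomal subunits and were picked out after their values were seen, had amplitudes of 0.16 to 0.19 and peaks at CT8.2 to CT9.1.

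Genes for the ribosomal proteins themselves gave a different count. None of 78 passed (0 with an unadjusted p under 0.05), their median amplitude was 0.07, and the lowest adjusted p was 0.436, for RpS15Aa. DESeq2 called none of the 78 either, with 1 unadjusted p under 0.05. Their fitted peaks depended on the processing, with 21 of 78 in the day as counted. It was 64 with the runs of library numbers as a term and 65 when scaled to the spike-ins. The ribosome biogenesis genes had 28 of 29 in the day as counted, 27 with the runs term and 29 with the spike-ins. No gene list had fewer fitted day peaks with the spike-ins than as counted. With the spike-ins 0 of the 29 passed, and 1 had an unadjusted p under 0.05 (15 as counted), against 1.66% of all genes.

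**Figure D3:**
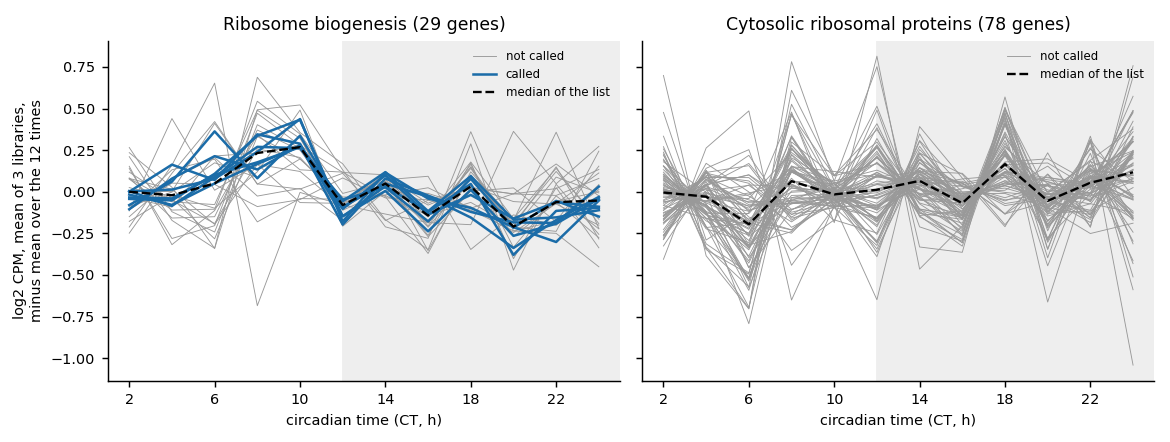
Log2 level relative to each gene's own mean, against circadian time in h, for 29 ribosome biogenesis genes and 78 cytosolic ribosomal protein genes. The median of the ribosome biogenesis genes is highest at CT8 (0.23) and CT10 (0.27). For comparison, the median of 48 respiratory chain genes was highest at CT22 (0.32) and lowest at CT6 (-0.25).

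Respiratory chain genes had their fitted peaks at night. All 48 listed genes, of complexes I to V with cytochrome c and the ADP/ATP carrier sesB, had a fitted night peak, 42 of them at CT17 to 21, with a median amplitude of 0.18. Of all 10123 genes tested, 4756 had a fitted night peak and 2019 one at CT17 to 21, with a median amplitude of 0.08. None passed at an adjusted p of 0.05 (1.74% of all genes did), and 24 had an unadjusted p under 0.05 (50%, against 12.8% of all genes). DESeq2 called 5, against 3.12% of all genes, with 27 at an unadjusted p under 0.05, against 13.7%. The nearest was SdhD, a subunit of succinate dehydrogenase, at 61.4 to 116.3 CPM by day (median 88.9) and 77 to 132.97 by night (median 109.2), with an adjusted p of 0.0504. Without CT4 replicate 2 it passed (adjusted p 0.0455). Outside the list, ND-ACP of complex I was called over all libraries (peak CT19.5, adjusted p 0.0450) and not without CT4 replicate 2 (adjusted p 0.0502). In that fit ND-B17.2 of complex I (peak CT17.6, adjusted p 0.0475) and COX6AL, named as a subunit of complex IV (day peak at CT5.8, adjusted p 0.0463), were gained. These 3 were named after their values were seen. The median member was 0.25 below its mean at CT6 and 0.32 above at CT22 on the log2 scale. Genes of the chain share these libraries, and with the runs of library numbers as a term 16 of the 48 passed, against 4.9% of all genes. Scaled to the spike-ins, 43 of the 48 had fitted night peaks and none had an unadjusted p under 0.05, against 1.66% of all genes.

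The other gene lists had 0 to 6 called members, to be read against 1.74% of all genes called and 12.8% at an unadjusted p under 0.05. These lists too were put together with earlier results of these data known, so the counts describe them. Of 22 clock kinases, phosphatases and ligases 2 passed (9.09%, gol and Usp8), while the kinases and phosphatases themselves did not. Of 24 known clock output genes of the fly head 6 passed (25.0%): dy, Usp8 (a member of both lists), CG10513, Slob, to and Cyp4e3. Among 33 phototransduction genes only Gbeta76C passed, with 9 at an unadjusted p under 0.05, 8 of them with a night peak. DESeq2 called 4 of the 33, against 3.12% of all genes. With the runs of library numbers as a term 7 passed, against 4.9% of all genes, and scaled to the spike-ins none did, against 0.0296%. One gene passed in each of these lists: activity-induced transcription factors (CG14186, 1 of 17), photoreceptor membrane and eye structure (eys, 1 of 14), ion channels and sleep (Slob, 1 of 29), synaptic vesicle and neuronal markers (Gad1, 1 of 18), glycolysis (Gapdh1, 1 of 13), autophagy (foxo, 1 of 20), muscle (Tm2, 1 of 22), the takeout family (to, 1 of 16), UDP-glycosyltransferases (Ugt35E2, 1 of 21) and cytochrome P450 genes (Cyp4e3, 1 of 63, or 1.59%, about the share of all genes). In the last, 18 of the 63 had an unadjusted p under 0.05, 16 of these with a day peak. Of 28 lipid and carbohydrate genes 2 passed (Treh and Ilp6) and of 34 glutathione genes 2 (Gss1 and Gclc). A list name does not give the function of each member, and whether CG14186 encodes a transcription factor was not examined.

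No member passed in the remaining lists, where the count with an unadjusted p under 0.05 was 3 of 27 for clock neuropeptides and receptors, 3 of 16 for glia, 2 of 21 for dopamine, serotonin, histamine and octopamine genes, and 7 of 22 for fat body genes. It was 5 of 32 for odorant-binding proteins, 1 of 36 for antimicrobial and immune peptides, 1 of 5 for Turandot genes, 2 of 20 for endoplasmic reticulum folding, 1 of 32 for the proteasome and 2 of 13 for female and male markers. For haemocyte genes it was 1 of 12, for ovary, testis and gut genes 1 of 5, and for eye pigment genes 1 of 18. Against 12.8% of all genes, these shares range from 2.78% for immune peptides to 31.8% for the fat body.

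Hsp27 had the largest amplitude of all genes tested, and the rhythm calls of the heat-shock genes rested on CT4 replicate 2. Small heat-shock proteins and Hsp70-type chaperones are switched on by the factor Hsf when proteins misfold. Of 20 heat-shock and chaperone genes 4 passed (20.0%, against 1.74% of all genes), Hsp27 (amplitude 2.76), Hsp68 (2.29), Hsp26 (2.26) and Hsp23 (1.45), with peaks at CT3.8 to CT4.0 and adjusted p-values of 0.00687, 0.00779, 0.0168 and 0.0395. Hsp68 stood at 22.9, 4244 and 26.3 CPM at CT4, and Hsp26 at 14.1, 2482 and 9.25. In the other 35 libraries Hsp68 ran from 11.1 to 70.2 CPM and Hsp26 from 4.1 to 46.9, with no separation between day and night. Levels in these 35 did vary with replicate number. The summed level of the list was 3620 to 5243 CPM in replicate 1, 4733 to 9524 in replicate 2 and 3785 to 6457 in replicate 3. The reason for this was not tested. Hsf itself ran from 60.5 to 84.5 CPM (amplitude 0.01, adjusted p 0.939). Without CT4 replicate 2 none of the 20 passed (1 with an unadjusted p under 0.05), the amplitudes were 0.16 for Hsp27, 0.17 for Hsp68, 0.17 for Hsp26 and 0.10 for Hsp23, and the fitted peak of Hsp27 moved to CT14.9. The near-identical Hsp70 copies share reads, so their single values are uncertain and are not given.

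**Figure D4:**
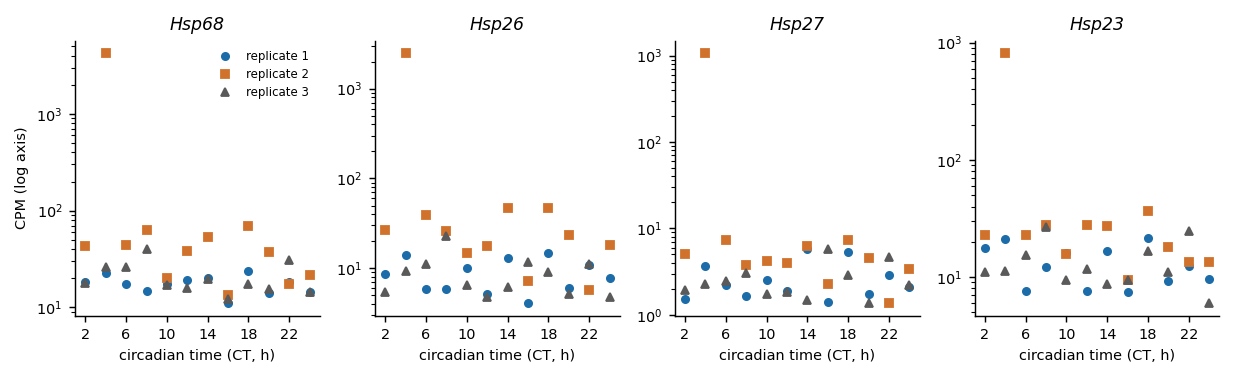
Level (CPM, log axis) of Hsp68, Hsp26, Hsp27 and Hsp23 in the 36 libraries against circadian time in h. CT4 replicate 2 lies far above the others in each panel. Without it the fitted amplitudes are 0.17 for Hsp68, 0.17 for Hsp26, 0.16 for Hsp27 and 0.10 for Hsp23.

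Leaving out CT4 replicate 2 gave 149 called genes (1.46% of those tested), with 38 of the 176 lost and 11 gained. Beyond 4 heat-shock genes and CG7130, the 33 other lost genes had at least 0.829 times their amplitude over all libraries and adjusted p-values of 0.0502 to 0.0999. per (amplitude 0.68, adjusted p 3.24e-06), gol (amplitude 0.67, adjusted p 4.02e-07) and Clk (adjusted p 0.0276) were called in that fit too. Leaving out each of the 36 libraries in turn gave 0.653 to 1.29 times the count over all libraries. The lowest ratios came without CT20 replicate 3 (0.653), CT22 replicate 3 (0.659) and CT22 replicate 2 (0.659).

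The test of any difference among the 12 times called 75 genes (0.741%), 43 of them also among the 176 and 32 not. Without CT4 replicate 2 the test kept 54 of the 75 and 22 of the 32, and without CT16 replicate 3 it kept 63 and 24. Among the 32, picked out after their values were seen, hry, a repressor of transcription, had its lowest time mean at CT22 (49.7 CPM) and its highest at CT4, with single libraries from 39.4 to 142.2 CPM. Its adjusted p was 0.0231 over all libraries and 0.0806 without CT4 replicate 2. Mdr65, a transporter of the blood-brain barrier, averaged 122.6 CPM at CT22 and 73.2 at the next time, CT24 (adjusted p 0.0432, and 0.0507 without CT4 replicate 2). CT4 was the highest time of 15 of the 32. One of these was stv, a co-chaperone gene with a median of 163 CPM and a maximum of 1721, whose adjusted p went from 0.0231 to 0.295 without CT4 replicate 2. CycB was highest at CT16, where replicate 3 stood at 31.2 CPM against at most 14.7 elsewhere, and its adjusted p went from 0.0253 to 0.0570 without that library.

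The same test was made in the males of Canton-S B and in the DGRP_892 females to see whether the rhythms differed. Each group was fitted alone. In males 100 of 10186 genes passed (0.982%) and in DGRP_892 females 4 of 10067 (0.0397%): gol, Usp8, dy and CG7214, each also called in Canton-S B females. Males and females of Canton-S B shared 35 called genes, 19.9% of the female and 35% of the male calls, and all 35 peaked within 3.17 h of each other. Over the 176 genes called in females, the male peak lay within 4 h in 157 and the male amplitude was lower in 167 (median 0.12 against 0.24), though the females' values chose these genes.

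Tested directly, the rhythm differed between the sexes in 1 of 10388 genes (0.00963%; 1276, or 12.3%, at an unadjusted p under 0.05). That gene, fs(1)Ya, a maternal nuclear envelope gene that the naming rule leaves out for its low level, averaged 0.0519 ± 0.239 CPM in females (SD, n = 36), was at 0 in 28 of the 36 and reached 1.44 CPM in CT16 replicate 3. Without that library no gene passed and fs(1)Ya had an adjusted p of 0.453. Treh (amplitude 0.18 in females, 0.02 in males) and Clk (0.25 and 0.09) did not differ by this test (adjusted p 0.337 and 0.405), which does not show that they are alike. per (0.66 and 0.51), gol (0.66 and 0.70) and dy (1.67 and 1.64) were called in both sexes. cwo was called in males (amplitude 0.18, CT18.0, adjusted p 0.0333) and not in females, and the difference did not pass (adjusted p 0.387).

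Between the female groups, 4 of 10363 genes (0.0386%, with 346, or 3.34%, at an unadjusted p under 0.05) differed in rhythm, all with the smaller 24-h amplitude in DGRP_892. Both lines were fitted with a 24-h curve only, and whether the long period of DGRP_892 bears on its amplitudes was not tested. per had an amplitude of 0.66 in Canton-S B and 0.18 in DGRP_892 females (adjusted p of the difference 0.0300). Its DGRP_892 levels ran from 49.1 to 88.2 CPM by day (median 70.3) and from 58.5 to 115.3 by night (median 82.8). gol had amplitudes of 0.66 and 0.26 (adjusted p 0.0300), with 119.1 to 193 CPM by day (median 145) and 129.8 to 231 by night (median 178) in DGRP_892. CG14186 had amplitudes of 0.28 and 0.06 (adjusted p 0.0300), and its DGRP_892 levels of 59.5 to 81.2 CPM by day and 54.4 to 84.4 by night overlapped almost fully. CG33965, which the naming rule leaves out for its low level, ran from 0.777 to 2.54 CPM by day (median 2.03) and from 0.366 to 1.75 by night (median 0.704) in Canton-S B. In DGRP_892 it ran from 1.58 to 3.17 and from 1.56 to 3.25 CPM, with amplitudes of 0.90 and 0.05 (adjusted p 2.95e-04). Without CT16 replicate 3 the adjusted p was 0.0492 for per and 0.0527 for gol, so that 3 of the 4 passed.

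**Figure D5:**
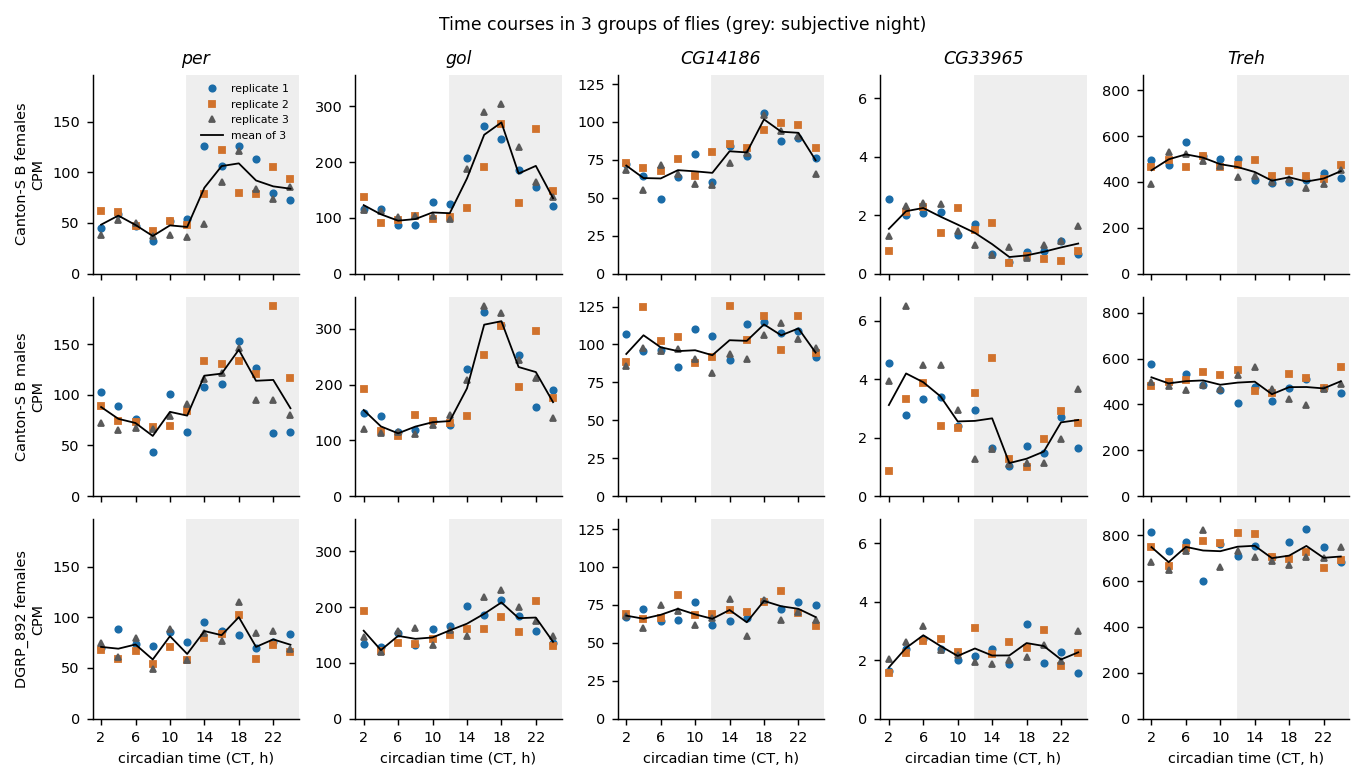
Level (CPM) of per, gol, CG14186, CG33965 and Treh against circadian time in h in Canton-S B females, Canton-S B males and DGRP_892 females, with points for the 36 libraries of each group. The fitted 24-h amplitude is smallest in DGRP_892 for the first 4 genes, whose rhythm differed between the female groups. Treh passed neither test of a difference in rhythm, with amplitudes of 0.18, 0.02 and 0.01 in the 3 groups in that order. That of gol is 0.70 in males and 0.66 in Canton-S B females.

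The deeper and the shallower libraries were also fitted apart. Within the 15 deeper libraries only gol passed (0.00913% of genes, amplitude 0.75, adjusted p 1.87e-05), and within the 21 shallower ones 12 genes did (0.117%), among them per (0.73), gol (0.63), dy (2.32), eys (0.32) and CG14186 (0.26). The amplitude of per was 0.58 in the deeper libraries (adjusted p 0.259) and that of Clk 0.25 and 0.21 in the deeper and shallower. These subsets hold fewer libraries than the whole, and whether depth itself bears on the calls was not tested.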

How the data were processed

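The authors deposited a table of read counts per gene for 144 libraries, with FastQC 0.11.5, STAR 2.5.3a and featureCounts 1.5.2 named in the submitters' processing notes. The genome build and the strand setting of the counting are not given in the sources used here. Gene names and coordinates come from the Ensembl 115 annotation of fly genome release 6, which named 17239 of 17381 gene IDs. The 92 ERCC rows (0.413% of counts) entered neither the library sizes nor the tests, and 1 empty column was not used. A second table deposited by the authors holds batch-corrected values (unit score, 3.82% below 0) of 11525 genes and served as an alternative only, as log2(value + 20) in limma.

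Genes were filtered with filterByExpr (minimum count 10, total 15), which left 10123, scaled by TMM and fitted with edgeR 4.0.16 in R 4.3.3 (robust quasi-likelihood F test of the 24-h cosine and sine together, Benjamini-Hochberg over all genes tested, threshold 0.05). CPM are counts per 1000000 gene counts. Amplitudes and peaks per replicate number come from least squares on log2 CPM (prior count 2). limma 3.58.1 and DESeq2 1.42.0 gave alternatives. Whether the 3 libraries of a time came from separate cultures beyond their pools of heads is not given, so p-values measure the spread between these libraries. A rule gave the genes to name: the core clock genes and the 6 genes of largest amplitude in each of 4 windows of peak time. These 6 had a mean of at least 5 CPM and 3 peak times within 4 h, and the window from CT21 to 3 held no called gene. It also gave up to 4 called genes and the weakest gene of each of 33 lists, and up to 6 genes per difference between groups. Many of the weakest genes are not named. Some genes outside the rule, such as Myo28B1, CG7214, SdhD and RpS15Aa, are named without a mark. Members and lists were chosen with earlier results of these data known. Promoter motifs were not analysed here. Scripts were tested on simulated data.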

Additional observations from a re-analysis of the deposited data

Results flagged for a closer look

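The rhythm of 5 genes differed between groups in a direct test of the difference (edgeR quasi-likelihood F test, Benjamini-Hochberg). Between Canton-S B males and females it was fs(1)Ya (adjusted p 0.046), whose female values rest on CT16 replicate 3, at 1.44 CPM. That library also held the highest osk and nanos levels, and their part in the result was not tested beyond leaving the library out, which gave an adjusted p of 0.453.

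Between DGRP_892 and Canton-S B females, CG33965 (adjusted p 2.95e-04), CG14186 (adjusted p 0.0300), gol (adjusted p 0.0300) and per (adjusted p 0.0300) differed, with the smaller 24-h amplitude in DGRP_892 for all 4. Leaving out all libraries of 1 replicate number gave adjusted p-values of 0.893, 0.108 and 0.925 for CG14186, 0.998, 0.0856 and 0.976 for gol, 0.998, 0.128 and 0.212 for per, and 0.380, 0.0319 and 0.0242 for CG33965 (without replicates 1, 2 and 3 in turn). The amplitude of the difference (log2) stayed at 0.202 to 0.256 for CG14186 (0.224 over all libraries), 0.388 to 0.423 for gol (0.402), 0.405 to 0.549 for per (0.487) and 0.813 to 1 for CG33965 (0.873).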

How the results depend on the processing

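The count of 176 rhythmic genes was within 1.5 times of itself with RLE scaling (178), no filter on low counts (157), a 12-h pair added (149), limma voom (157), the replicate block (254) and without CT4 replicate 2 (149). It rose to 315 with DESeq2, 322 on the authors' batch-corrected values, 383 with all 144 libraries sharing the spread, 496 with the runs of library numbers as a term and 401 with that term and without CT4 replicate 2. It fell to 3 with ERCC scaling, 12 and 1 within the shallower and deeper libraries, and 6 with a day-night step added. Tests within each 12-h span called 4 genes, and 12 without CT4 replicate 2. Leaving out 1 library or 1 replicate number gave 14 to 227 genes. Of the 42 named genes that passed, 25 passed in each of the 36 fits without 1 library. Any difference among times held for 0.741% of genes, 1.34% with the runs term and 0% to 0.793% with CT4 replicate 2 (0.752%), CT16 replicate 3 (0.793%) or 1 replicate number left out. The sex difference (0.00963% of genes) became 0% with ERCC scaling, the runs term or any of CT4 replicate 2, CT16 replicate 3 and the 3 replicate numbers left out (0% to 0%), and 0.691% with no filter. The line difference (0.0386%) became 0% with ERCC scaling, 0.14% with no filter and 0% to 0.0382% with the same left out. The step, the tests within 12-h spans, the runs term without CT4 replicate 2 and the fits without CT16 replicate 3 were chosen after seeing the data. The causes of these changes were not tested, except that subsets hold fewer libraries.

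Replicate numbers were tried as a block. Across different times, libraries with the same number correlated in their deviations from the time means (median 0.151, against -0.0642 for different numbers). Of 198 same-number pairs 57.6% were above 0.1, and 30 of 36 libraries correlated best with their own number. Replicate number had an R2 of 0.394 with the second principal component and 0.455 with the fourth, and the library runs had 0.777 and 0.095. Replicate numbers were spread unevenly over these runs, and most libraries of the second run were of replicate 2. The libraries of a number thus resemble each other somewhat. The labels do not say what they share, and the part of the library runs was not tested. The block moved the rhythm count to 254 (171 shared), any difference among times to 1.79% of genes, the sex difference to 0% and the line difference to 4 genes.

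Peaks moved by over 6 h for 4 heat-shock genes. On the authors' batch-corrected values the amplitudes were 0.544 for Hsp68, 0.436 for Hsp23 and 0.563 for Hsp26, none past the threshold. The amplitude of Hsp27 was 0.162 to 3.03 with libraries or replicate numbers left out (0.261 without replicate 2, 0.162 without CT4 replicate 2) and 0.0718 with the runs term and without CT4 replicate 2. The amplitude of Hsp26 was 0.147 to 2.5 with libraries or replicate numbers left out and 0.167 without CT4 replicate 2. At low depth, as for dy (833 counts in all) and Gss1 (mean 0.207 CPM), single values carry a large counting error.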
